A study of Rattus norvegicus with 14 samples.

Results

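The secreted WNT proteins, their Frizzled receptors, the secreted proteins that block them and a few intracellular partners were followed across 7 rat cell lines. A probe belonged to the set if its gene name was that of a numbered Wnt, Fzd, Sfrp, Dkk or Axin gene, of Lef1, of a gene beginning with Tcf7, or of Wif1. This gave 46 of 41012 probes and 36 of 35528 genes, made up of 18 ligands, 7 receptors, 7 secreted antagonists and 4 intracellular genes (Axin1, Axin2, Lef1 and Tcf7). No measured value entered that choice. Total RNA was hybridised to 14 one-colour Agilent arrays, 2 per line, called A and B. Fi1 and Fi2, derived from blastocysts of Fischer rats, and Wk8, from a Wistar-Kyoto blastocyst, form the blastocyst group. CL19, 3C3 and RMAPC-1, from Fischer bone marrow, form the bone marrow group, and both groups together are called the stem cell lines here, after the term hypoblast stem cells in the study's design. RClone-2, a single Fischer mesenchymal line, was the control, so what is particular to that line and what is shared by mesenchymal cells cannot be told apart. The labels name no genetic change and no treatment. The study asked how blastocyst and bone marrow lines kept in the medium for multipotent adult progenitor cells compare. Fi1, 3C3, RMAPC-1 and RClone-2 were labelled male and Fi2, Wk8 and CL19 female.

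WNT proteins are lipid-bearing signals that act at short range. In the beta-catenin branch a WNT binds a Frizzled together with a co-receptor of the Lrp5 and Lrp6 type, the destruction complex built around Axin and Apc is switched off, and beta-catenin joins the DNA-binding factors Tcf7, Lef1, Tcf7l1 and Tcf7l2 at target genes such as Axin2. Other WNTs, among them Wnt5a and Wnt11, are better known for signalling through Ror receptors and the planar polarity proteins. Sfrp proteins and Wif1 bind WNTs outside the cell, while Dkk1 blocks the co-receptor. In the early embryo Dkk1 is made by the anterior visceral endoderm, a descendant of the hypoblast, and Wnt11 and several Frizzled genes are active in extraembryonic endoderm.

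Every level below is the log2 processed signal of a probe minus the 75th percentile of its array, averaged over arrays A and B of a line. A level of 0 thus equals that percentile, and levels of different genes are not compared, because probes differ in brightness. The arrays do not show whether fewer cells of a line made a transcript or each cell made less, which cannot be told apart in bulk RNA. The identity of the lines was checked with fixed marker lists. All 11 primitive endoderm markers were well above background on all 12 stem cell arrays, and 10 of them, all but Sox7, on both RClone-2 arrays too. For each list the linear levels were summed on every single array and the sum put on the log2 scale. This summed level was 9.24 to 10.07 on the stem cell arrays against 6.27 to 6.43 on those of RClone-2. Such a sum is set mostly by the brightest probes, and in RClone-2 Col4a1 alone stood at 5.98. Of 10 mesenchymal stromal markers, 9 were above background on both arrays of RClone-2, with a summed level of 9.12 to 9.38 against 0.25 to 1.94 in the stem cell lines, and Nt5e was the exception in RClone-2. On the stem cell arrays 4 of these 10, Col1a1, Col1a2, Eng and Vcam1, were above background throughout, while Thy1, Spp1 and Ccl2 were so on no array. Vcam1 lay higher in the stem cell lines than in RClone-2 without passing (1.24, adjusted p = 0.140). Of 8 haematopoietic markers Cd68 and Csf1r were above background on all 14 arrays, Spi1 on 3 blastocyst arrays and no other, and Itgam and Cd3e on none. The summed level of that list was -1.36 to -0.57 in the blastocyst lines, -1.41 to -0.68 in the bone marrow lines and -1.37 to -1.16 in RClone-2. Of 5 trophoblast markers with a probe, Eomes and Tfap2c exceeded background throughout the 12 stem cell arrays but on neither RClone-2 array. So did Pou5f1, of 5 epiblast or pluripotency markers with a probe. Tfap2c and Pou5f1 were lower in the blastocyst than in the bone marrow lines (limma, -3.77 and -2.80, adjusted p = 0.00972 and 0.00837). Eomes did not pass there, and Cdx2 and Hand1 passed in neither comparison. The part of these marker differences in the results below was not tested.

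The arrays of RMAPC-1 stood apart from each other. Of the 28 members tested, 12 differed over 2-fold between its arrays A and B, against 0 to 4 in the other lines. Over all genes tested, 16.9% differed that much in RMAPC-1, against 3.31% in Fi1, 4.51% in Fi2, 4.66% in Wk8, 3.17% in CL19, 6.49% in 3C3 and 3.18% in RClone-2. Wnt6 was at -7.47 on array A and 0.15 on array B, Sfrp5 at -5.15 and 1.34, and Wnt5b at -4.02 and -1.61, while Axin2 ran the other way, at -5.56 and -8.23. The mean of RMAPC-1 for these genes is therefore the middle of 2 unlike values, and a difference that moves far with either array is given without that array too. For Wnt6 the difference between blastocyst and bone marrow lines was 0.01 (adjusted p = 0.994), -1.26 without array A (0.677) and 1.28 without array B, where it passed (0.0295). The labels do not say whether arrays A and B came from separate cultures. Slides 1 and 3 held Fi1, Fi2, Wk8 and CL19, and slides 2 and 4 held 3C3, RMAPC-1 and RClone-2, so that the slide pair went partly with the groups.

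**Figure D1:**
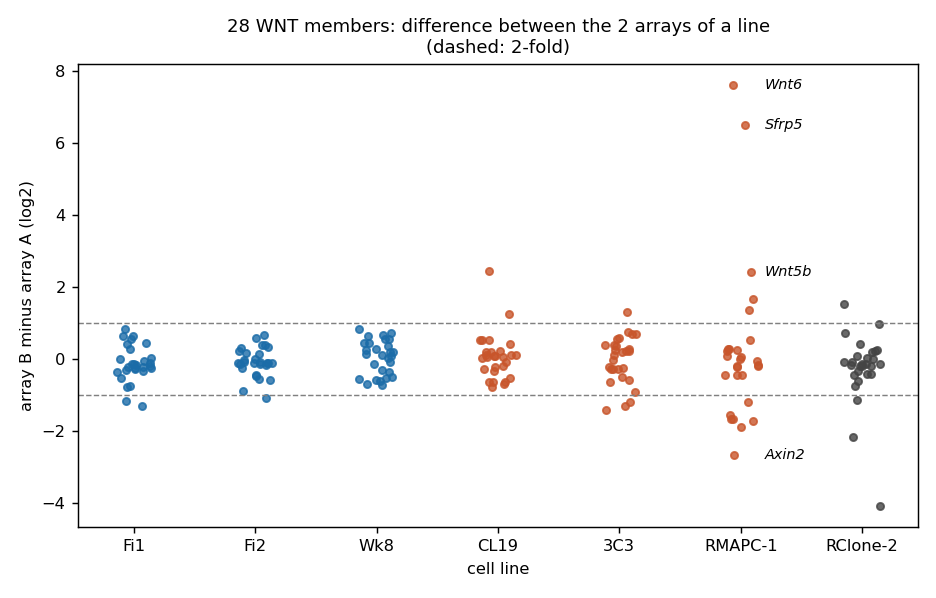
Difference between array B and array A (log2) for the 28 WNT members tested, one point per gene, in each of the 7 lines (blue, blastocyst lines; orange, bone marrow lines; grey, the mesenchymal line). Dashed lines mark 2-fold; 12 points of RMAPC-1 lie beyond them, against 0 to 4 in any other line, and Wnt6 and Sfrp5 lie highest.

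Of the 36 genes, 28 had a line with both arrays well above background and were tested, 10 of them being above it on all 14 arrays. The other 8, the ligands Wnt3, Wnt3a, Wnt8a, Wnt8b, Wnt9b and Wnt10a and the receptors Fzd4 and Fzd6, had no level by this rule in any line. All 7 antagonists and all 4 intracellular genes were tested, with 12 of 18 ligands and 5 of 7 receptors. A gene that met this filter only through lines in which it is high could hardly do other than differ, so the counts below describe the tested members, not the whole family, and support nothing by themselves. Between the stem cell lines and RClone-2, 14 of the 28 met it on 1 side only, 8 in stem cell lines and 6 in RClone-2.

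**Figure D2:**
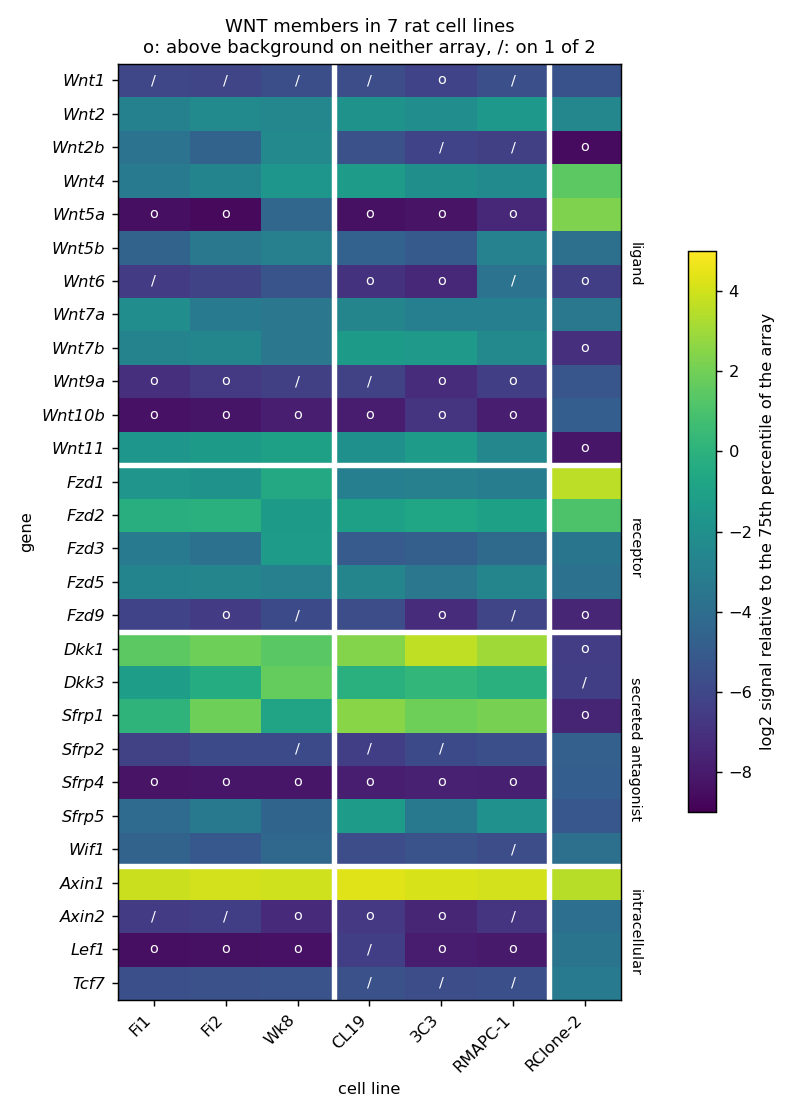
Mean log2 signal relative to the 75th percentile of the array for the 28 tested members (rows, grouped by role) in 7 lines (columns; white bars part blastocyst, bone marrow and mesenchymal lines). A circle marks a line where the probe was above background on neither array and a slash one where it was on 1 of 2; colours are to be read along a row. Along their rows Dkk1, Sfrp1 and Wnt11 are brighter in all 6 stem cell lines than in RClone-2, while Wnt5a, Fzd1, Lef1 and Sfrp4 are brightest in RClone-2. Of these Fzd1 is above background in every line.

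Most tested members differed between the stem cell lines and RClone-2, in both directions. The stem cell lines had far more of the antagonists Dkk1, Sfrp1 and Dkk3 and of the ligands Wnt11 and Wnt7b, and at least 2.92-fold more of the ligand Wnt2b. The ligands Wnt5a, Wnt4 and Wnt10b, the receptors Fzd1 and Fzd2, and Lef1, Tcf7 and Axin2 were lower there. Of 28 members 19 passed (limma, Benjamini-Hochberg adjusted p below 0.05), 7 higher and 12 lower, or 67.9%, where 47.3% of all 24859 genes passed, 24.8% higher and 22.5% lower. Of these 19, 11 had met the filter on 1 side only, and the other 8 were Axin1, Fzd1, Fzd2, Sfrp2, Tcf7, Wif1, Wnt4 and Wnt5a, of 14 members that met it on both sides. RClone-2 lay outside the range of the 6 stem cell lines for 23 of the 28, against 64.5% of all genes. The median difference was -0.08 over the members and 0.03 over all genes. Only 1 line stands for the mesenchymal side, and the fit takes its spread from the other lines. With normexp background correction the calls of Axin1, Axin2, Lef1, Tcf7, Sfrp2, Sfrp4, Wif1, Wnt2b, Wnt9a and Wnt10b were lost (adjusted p from 0.0915 to 0.889) with the sign kept, and without the A arrays those of Axin1 (0.0709), Fzd2 (0.0569), Wif1 (0.0894) and Wnt9a (0.109).

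Among the secreted antagonists 6 of 7 passed, 3 higher and 3 lower. Dkk1 lay at 1.49, 1.89 and 1.41 in Fi1, Fi2 and Wk8, at 2.42, 3.63 and 3.01 in CL19, 3C3 and RMAPC-1, and at -6.48 in RClone-2, where neither array rose above background. It was thus at least 395-fold higher in the stem cell lines, a bound set by the lowest signal still called above background (log2 difference 8.79 ± 0.43, SE, 6 lines against 1, adjusted p = 2.9e-05). Sfrp1, which binds WNTs through a Frizzled-like domain, lay at 0.10, 1.90 and -0.80 in the blastocyst lines, at 2.49, 1.92 and 2.15 in the bone marrow lines, and at -7.54 and not above background in RClone-2. It was at least 197-fold higher (8.83 ± 0.89, adjusted p = 5.6e-04). Dkk3, a Dickkopf relative whose part in WNT signalling is less settled, lay between -1.14 (Fi1) and 1.70 (Wk8) in the stem cell lines and at -6.40 in RClone-2, which reached background on 1 of 2 arrays (6.44 ± 0.94, adjusted p = 0.00254). All 6 stem cell lines were above RClone-2 for each of these 3 genes.

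The antagonists that ran the other way were all dim. Sfrp4 was above background on both RClone-2 arrays (-4.82) and on none of the 12 stem cell arrays, and so lower by at least 2.69-fold (-3.17 ± 0.14, adjusted p = 1.7e-05), and its second measurable probe gave -3.59 ± 0.17. Wif1, the WNT inhibitory factor, was at -3.84 in RClone-2 and from -5.69 to -4.35 in the stem cell lines (-1.30 ± 0.29, adjusted p = 0.0138). The probe chosen for Sfrp2 changed little, from -6.42 to -5.60 in the stem cell lines and -4.71 in RClone-2 (-1.26 ± 0.32, adjusted p = 0.0212). Another Sfrp2 probe was above background in RClone-2 alone, at -4.34, and gave -3.93 ± 0.13 (adjusted p = 6.3e-06), so that the probes shared a direction but not a size. The calls of Sfrp2 and Wif1 were lost with the slide pair as a term (adjusted p = 0.0874 and 0.0771), and within slides 2 and 4 Sfrp2 was at -1.02 (0.0528). Sfrp5 was the antagonist that did not pass, at 2.10 ± 0.76 (adjusted p = 0.0648). The mean of every stem cell line lay above the -5.18 of RClone-2. For RMAPC-1 that mean joined -5.15 on array A, level with RClone-2, and 1.34 on array B. The difference was 1.56 without array B of RMAPC-1 and 2.64 without array A.

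Among the ligands 7 of 12 passed, 3 higher and 4 lower. Wnt11 was at -1.62, -1.35 and -1.03 in the blastocyst lines, at -1.25 in 3C3 and -2.52 in RMAPC-1 with CL19 between them, and at -8.13 and not above background in RClone-2. It was at least 26.0-fold higher in the stem cell lines (6.50 ± 0.46, adjusted p = 1.2e-04). Wnt7b, from -3.42 in Wk8 to -1.34 in CL19, was at least 14.8-fold higher (4.75 ± 0.48, adjusted p = 5.6e-04). Wnt2b was at least 2.92-fold higher (3.83 ± 0.75, adjusted p = 0.00784), with a term for the slide pair 3.33 (adjusted p = 0.0555). None of these 3 rose above background in RClone-2.

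Wnt5a, the best known ligand of the branches that do not use beta-catenin, had the largest difference of the tested members in the other direction. It stood at 2.30 in RClone-2 and at -4.37 in Wk8, and was above background on neither array of Fi1, Fi2, CL19, 3C3 or RMAPC-1 (-9.88 ± 1.54, adjusted p = 0.00332, with 2 of 12 stem cell arrays above background). Wk8 is thus the stem cell line in which Wnt5a was measured, and still the level lay below that of RClone-2. Wnt4 was above background everywhere, at -3.25, -2.67 and -1.62 in the blastocyst lines, -1.33, -2.05 and -2.30 in the bone marrow lines, and 1.48 in RClone-2, a 12.8-fold difference (-3.68 ± 0.62, adjusted p = 0.00439). Wnt10b rose above background in RClone-2 alone (-4.79) and was lower elsewhere by at least 2.73-fold (-3.02 ± 0.42, adjusted p = 0.00203), a call lost within slides 2 and 4 (-2.53, 0.0512). Wnt9a passed narrowly (-1.38 ± 0.42, adjusted p = 0.0390). That call was lost without Fi1 (-1.28, 0.0568), Fi2 (-1.40, 0.0653), RMAPC-1 (-1.45, 0.0534) or array A of RMAPC-1 (-1.36, 0.0541), and within slides 2 and 4 (-1.54, 0.0976).

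Wnt1, Wnt2, Wnt5b, Wnt6 and Wnt7a did not pass. For Wnt7a the answer depended on the probe. Its brightest probe ranged from -3.44 to -2.15 in the stem cell lines, with Fi1 highest, and RClone-2 lay within that range at -3.40 (0.50 ± 0.47, adjusted p = 0.417). A further probe was at -3.25, -5.54 and -6.07 in Fi1, Fi2 and Wk8, at -4.59, -5.65 and -5.95 in CL19, 3C3 and RMAPC-1, and above background on neither RClone-2 array (2.93 ± 1.04, adjusted p = 0.0616). The remaining probe ran the same way (2.60 ± 1.18, adjusted p = 0.119). The first 2 probes are shown because they read one transcript and gave different profiles. Per the files' rn4 annotation both lie on the minus strand, the first at chr4:125542324-125542383 and the second at chr4:125542542-125569810, an interval longer than the 60 bases of the probe. In the transcript the second starts at base 793 and the first at base 1011.
Wnt7a, brightest probe: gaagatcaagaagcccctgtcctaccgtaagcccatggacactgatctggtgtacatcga
Wnt7a, further probe: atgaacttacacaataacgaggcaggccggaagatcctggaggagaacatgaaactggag

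Among the receptors 2 of 5 passed, both lower in the stem cell lines. Fzd1 was at -1.73, -1.87 and -0.56 in the blastocyst lines, at -2.94, -2.88 and -3.11 in the bone marrow lines, and at 3.63 in RClone-2, a 56.3-fold difference (-5.81 ± 0.47, adjusted p = 2.4e-04). Fzd2 was at 1.10 in RClone-2 and from -1.34 to -0.14 in the stem cell lines (-1.85 ± 0.46, adjusted p = 0.0186). Its call was lost with a term for the slide pair (-1.75, 0.0931). Fzd5, above background on all arrays, was 0.94 ± 0.34 higher without passing (adjusted p = 0.0661), and Fzd3 overlapped between the groups. Fzd9 was dim, with 6 of 12 stem cell arrays and neither RClone-2 array above background, and it did not pass.

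All 4 intracellular genes passed. Axin1, a scaffold of the destruction complex, was above background on every array and was 1.53-fold higher in the stem cell lines (0.61 ± 0.16, adjusted p = 0.0215), a call lost within slides 2 and 4 (0.65, 0.0836) and, with arrays centred on spiked-in transcripts, reduced to 0.11 (adjusted p = 0.741). Axin2, a negative regulator that is itself a target of the pathway, was at -3.89 in RClone-2 and from -7.48 to -6.41 in the stem cell lines, with 3 of 12 stem cell arrays above background (-2.99 ± 0.41, adjusted p = 0.00206). Lef1 was at -3.64 in RClone-2 and above background on 1 of 12 stem cell arrays, array B of CL19 (-5.20), against -7.66 on array A of that line (-4.28 ± 0.57, adjusted p = 0.00180). Tcf7 was at -3.27 in RClone-2 and from -5.70 to -5.43 in the stem cell lines (-2.30 ± 0.15, adjusted p = 8.8e-05). Tcf7l1, which is not among the 36 because the array's design lists it under an older name, ran the other way, at 2.80 ± 0.22 higher in the stem cell lines (adjusted p = 1.9e-04). In RClone-2 it stood at -6.49, near the lowest signal called above background on those arrays (-6.13 and -6.53). With normexp background correction its call was lost (adjusted p = 0.196).

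The Lef1 and Tcf7 probes both read the part of the transcript that encodes the DNA-binding HMG box, which is nearly the same in both factors, and they are shown because probes for such regions can be confused. Aligned without gaps they overlap by 25 bases, of which 21 are identical, with a longest shared run of 12 bases in capitals. In rn4 the Lef1 probe lies at chr2:228663333-228663392 on the plus strand and the Tcf7 probe at chr10:37691480-37691539 on the minus strand. In Fi1, Fi2 and Wk8, Tcf7 was above background on all arrays and Lef1 on none. In RClone-2 both probes were above background on both arrays, at -3.64 for Lef1 and -3.27 for Tcf7. On arrays A and B of CL19, Lef1 stood at -7.66 and -5.20 and Tcf7 at -5.81 and -5.27. Whether either transcript adds signal to the other probe was not tested.
Lef1: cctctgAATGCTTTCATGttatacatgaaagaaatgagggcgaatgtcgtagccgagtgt
Tcf7: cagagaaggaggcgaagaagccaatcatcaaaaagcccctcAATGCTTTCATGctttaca

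**Figure D3:**
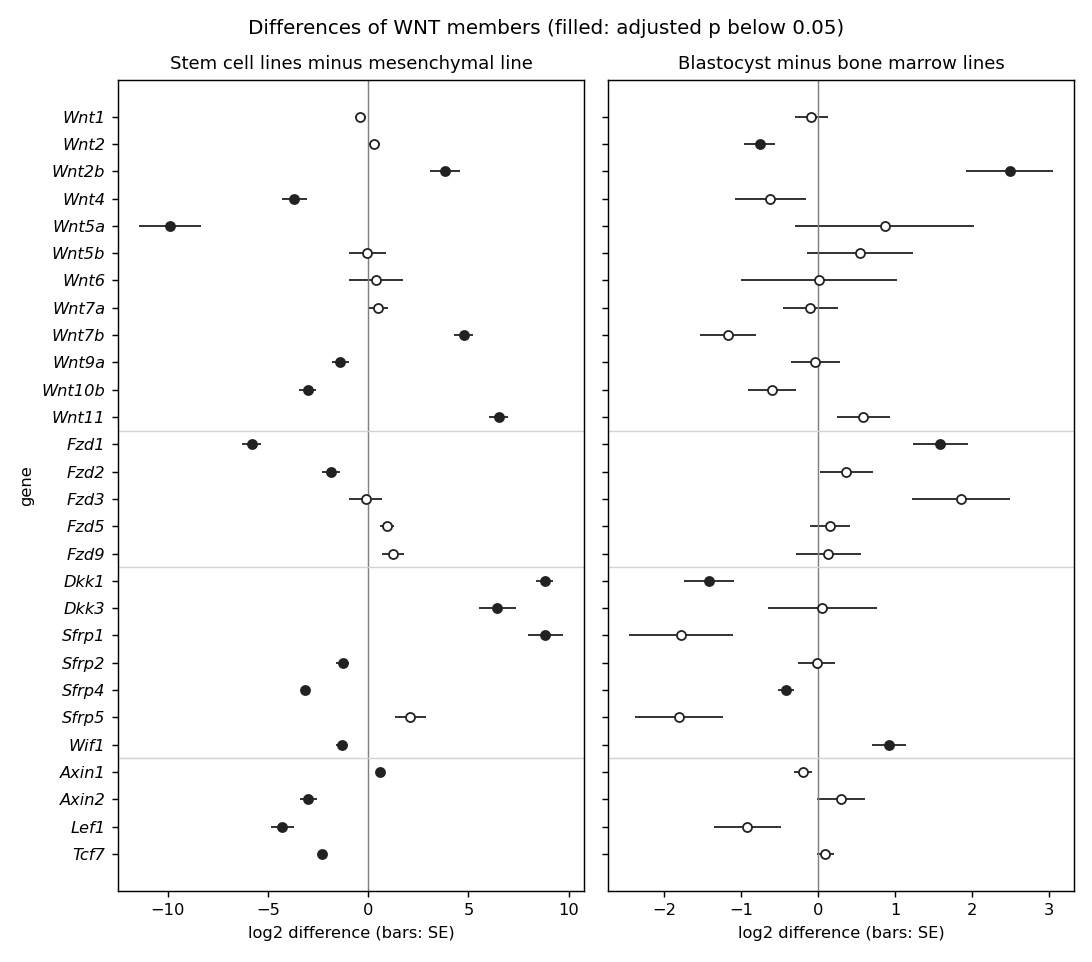
Log2 differences of the 28 tested members, stem cell lines minus RClone-2 on the left and blastocyst minus bone marrow lines on the right, with standard errors as bars; filled points have an adjusted p below 0.05. On the left 19 points are filled, 7 to the right and 12 to the left of 0, and on the right 6 are filled; both panels have their own scale.

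The blastocyst and bone marrow lines, set against each other over 3 lines each, differed in few members and by smaller amounts. The ligand Wnt2b, the receptor Fzd1 and the antagonist Wif1 were higher in the blastocyst lines, and the antagonist Dkk1 and the ligand Wnt2 were lower. Sfrp4 passed too, with no measured level on either side and a sign that turned to 0.06 on unscaled values. These 6 of 28 (limma, adjusted p below 0.05) are 21.4%, where 32.8% of all genes passed, 8.26% higher and 24.6% lower. The line means of the groups did not overlap for 10 of 28 members, against 52.3% of all genes. The median difference of all genes was -0.22, and of the calls over all genes 25.1% were higher in the blastocyst lines, against 82.7% on unscaled values, 39.8% after quantile normalization and 14.3% with arrays centred on spiked-in transcripts. The 75th percentile itself was 745.7 to 891.5 on blastocyst arrays and 558.9 to 660.1 on bone marrow arrays.

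Wnt2b, a ligand of the beta-catenin branch, was at -3.67, -4.57 and -2.39 in Fi1, Fi2 and Wk8 and at -5.53, -6.20 and -6.36 in CL19, 3C3 and RMAPC-1. Every blastocyst line lay above every bone marrow line, and the mean was 5.62-fold higher (2.49 ± 0.57, adjusted p = 0.0237). Of the bone marrow arrays 4 of 6 were above background. The call was lost without Fi1 (2.55, 0.0640), 3C3 (2.41, 0.0760) or RMAPC-1 (2.32, 0.0760).

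Fzd1 was 3.01-fold higher in the blastocyst lines (1.59 ± 0.36, adjusted p = 0.0230), with Wk8 highest and no overlap in the line values given above. Without CL19, 3C3 or RMAPC-1 its adjusted p was 0.0598, 0.0669 and 0.0736. Fzd3 was at -3.24, -3.71 and -1.34 in the blastocyst lines and at -4.98, -4.75 and -4.14 in the bone marrow lines, again without overlap, and did not pass (1.86 ± 0.63, adjusted p = 0.0687). RClone-2, at -3.57, lay within that range. Among the stem cell lines both Frizzled genes were highest in Wk8.

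In the blastocyst lines Dkk1 was 2.68-fold below its level in the bone marrow lines (-1.42 ± 0.33, adjusted p = 0.0244). The highest blastocyst line, Fi2 at 1.89, lay below the lowest bone marrow line, CL19 at 2.42. The call was lost without Fi1 (-1.37, 0.0727), Wk8 (-1.33, 0.0573), 3C3 (-1.12, 0.0534) or RMAPC-1 (-1.43, 0.0721). Sfrp1 was lower as well without passing (-1.78 ± 0.67, adjusted p = 0.0884). There Fi2, at 1.90, lay just under the lowest bone marrow line, 3C3 at 1.92, while Fi1 and Wk8 were lower. The ligand Wnt7b followed the same order, at -2.76, -2.58 and -3.42 against -1.34, -1.48 and -2.43, and also missed the threshold (-1.17 ± 0.36, adjusted p = 0.0525). Without array B of RMAPC-1 it passed (-1.24, adjusted p = 0.0326).

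Wif1 was at -4.56, -5.12 and -4.35 in the blastocyst lines and at -5.69, -5.43 and -5.69 in the bone marrow lines (0.93 ± 0.22, adjusted p = 0.0276), a 1.90-fold difference without overlap. It was lost without any one of Fi1, Wk8, CL19, 3C3 and RMAPC-1 (adjusted p from 0.0534 to 0.0837) and without array B of RMAPC-1 (0.73, 0.0729). Wnt2 was at -2.86, -2.37 and -2.52 against -1.79, -2.12 and -1.55 (-0.76 ± 0.20, adjusted p = 0.0362). No single stem cell line could be left out without losing that call (adjusted p up to 0.100), and without array A of RMAPC-1 it was at -0.76 (0.0541). Sfrp4 passed at -0.42 ± 0.10 (adjusted p = 0.0285), but it was above background on none of the 12 stem cell arrays and so had no measured level on either side. A Sfrp4 probe and a Wnt2 probe that were above background on none of the 14 arrays gave -0.57 and -0.40 in the same comparison. Both passed (limma, adjusted p = 0.0435 and 0.0358), so signals at background level can pass here in the direction of the Wnt2 and Sfrp4 calls.

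The value of Sfrp5 rested largely on 1 array. It was at -4.13, -3.32 and -4.50 in the blastocyst lines, at -1.31 in CL19 and -3.32 in 3C3, and at -5.15 and 1.34 on the arrays A and B of RMAPC-1. The difference was -1.81 ± 0.57 (adjusted p = 0.0570), -0.72 without array B (adjusted p = 0.581) and -2.89 without array A (adjusted p = 0.120). Another Sfrp5 probe, dimmer and above background on 8 of 14 arrays, passed at -1.44 ± 0.42 (adjusted p = 0.0453).

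**Figure D4:**
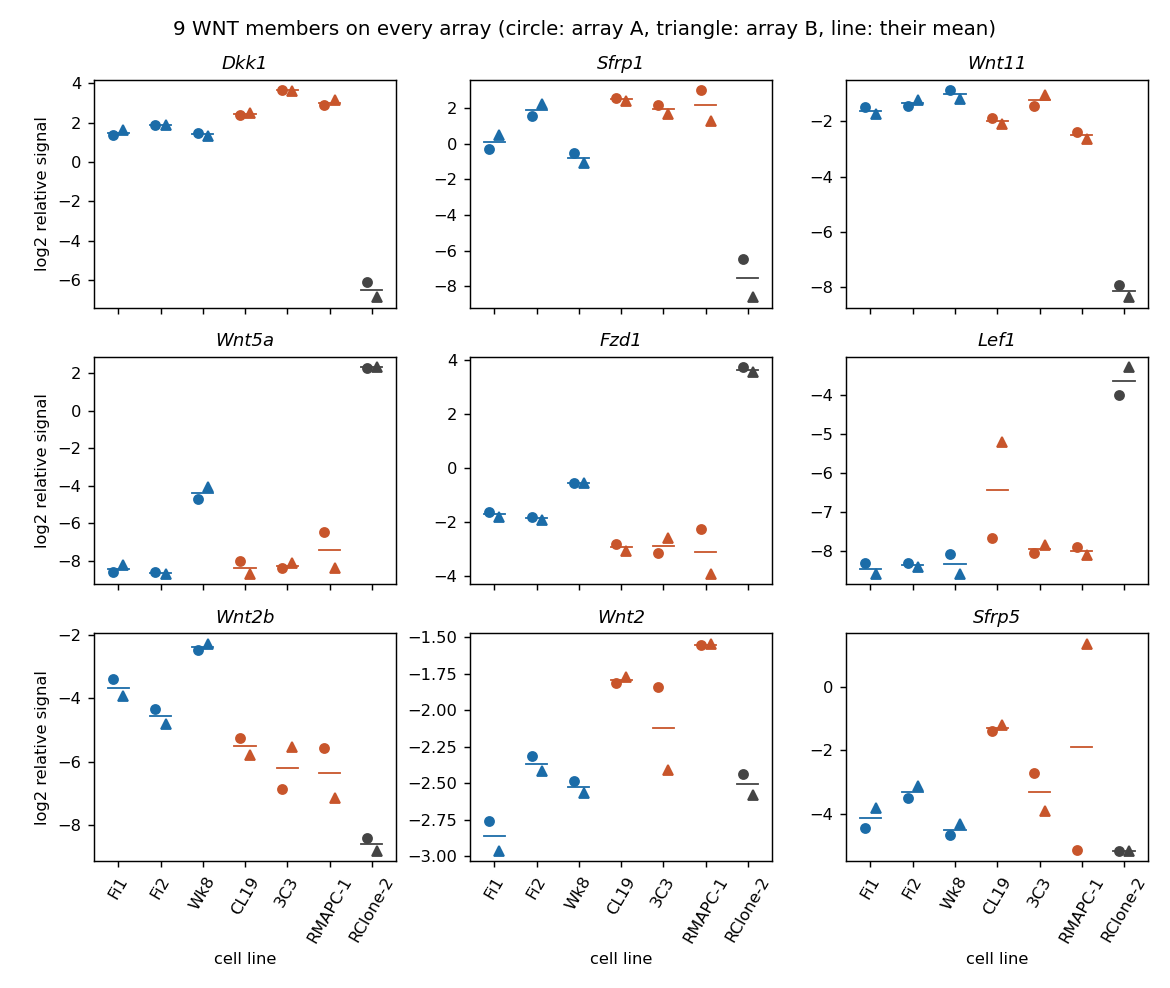
Log2 signal relative to the 75th percentile of the array for 9 members on every array (circle, array A; triangle, array B; short line, their mean; blue, blastocyst lines; orange, bone marrow lines; grey, RClone-2); each panel has its own vertical scale. Dkk1 and Wnt2b part the blastocyst from the bone marrow lines without overlap of the arrays, Wnt5a is raised in Wk8 among the stem cell lines, and the arrays of RMAPC-1 lie far apart for Sfrp5.

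The slide pair bears on all of these calls. Within slides 1 and 3, where the 3 blastocyst lines were set against CL19 alone, the differences were 1.99 for Wnt2b, 1.55 for Fzd1, 1.01 for Wif1, -0.82 for Dkk1 and -0.79 for Wnt2, in the same direction. None of the 28 members passed there with limma (5 had an unadjusted p below 0.05), and 0 of 24859 genes did, against 5266 at an unadjusted p below 0.05. With the slide as a block over arrays, 0 members and 3194 genes passed. Normexp background correction ended the calls of Wnt2b (0.90, 0.0670), Fzd1 (1.18, 0.0503), Wif1 (0.27, 0.623) and Wnt2 (-0.44, 0.399), and without the A arrays they were lost too (adjusted p of 0.0777, 0.0717, 0.103 and 0.128). On unscaled values Dkk1 was at -0.94 (adjusted p = 0.0790) and Wnt2 at -0.28 (adjusted p = 0.341), and on spiked-in transcripts Wif1 was at 0.71 (adjusted p = 0.0524). With sex as a covariate the 6 calls were lost at an adjusted p of 0.0564 to 0.0654.

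Further genes of the pathway were taken from 8 lists. The list of known targets also holds the members Axin2, Dkk1, Lef1 and Tcf7, already counted above. Its genes Nkd1, Notum, Rnf43 and Lgr5 stand in another of the lists too, so the counts are not independent. They are to be read beside 47.3% of all genes passing against RClone-2 (24.8% higher, 22.5% lower). Between the stem cell groups the share was 32.8% (8.26% higher, 24.6% lower). Of 5 co-receptors and other WNT receptors measured, all 5 differed between the stem cell lines and RClone-2, 3 higher and 2 lower. Ptk7 was 16.5-fold higher (4.05 ± 0.16), Ror2, a receptor for Wnt5a, 13.9-fold (3.80 ± 0.32) and Lrp5 7.07-fold (2.82 ± 0.40). Ror1, the relative of Ror2, was at least 2.64-fold lower (-3.46 ± 0.14) and Ryk 1.43-fold lower (-0.52 ± 0.15, adjusted p = 0.0341). Lrp5 was above background on 1 of the 2 RClone-2 arrays. With normexp background correction the calls of Lrp5 (adjusted p = 0.0887) and Ror1 (0.588) were lost. Between the stem cell groups Ror2 alone passed, 2.29-fold higher in the blastocyst lines (1.20 ± 0.24, adjusted p = 0.0176). That call was lost without Fi1 (0.0580), 3C3 (0.0615) or RMAPC-1 (0.0520).

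Of 3 genes that process or export WNT proteins, 2 passed against RClone-2, both lower in the stem cell lines. Wls, which carries WNTs to the cell surface, was 8.03-fold lower (-3.01 ± 0.45, adjusted p = 0.00289) and Porcn, which attaches their lipid, 3.77-fold lower (-1.91 ± 0.39, adjusted p = 0.00952). Notum, which strips that lipid off, did not pass (-0.07, adjusted p = 0.929). Between the stem cell groups Wls was higher in the blastocyst lines (1.14 ± 0.34, adjusted p = 0.0483), a call lost without Fi1, Fi2, CL19, 3C3 or RMAPC-1 (adjusted p from 0.0788 to 0.119) and without array A (0.0619) or B (0.0516) of RMAPC-1. Rspo3, an R-spondin that stabilises Frizzled receptors, rose above background on every stem cell array and on neither RClone-2 array, at least 110-fold higher (7.13 ± 0.33, adjusted p = 2.4e-05). It was also 4.22-fold higher in the blastocyst lines, at 1.57, 1.00 and 1.93 against -0.57, -0.43 and -0.74 (2.08 ± 0.25, adjusted p = 0.00650), and kept that call without any single line. Within slides 1 and 3 it was at 2.07 (adjusted p = 0.178). Lgr4, Lgr5 and Rnf43, the other measured genes of that list, did not pass in either comparison. Of 3 further inhibitors only Cthrc1 passed, higher in the stem cell lines (2.58 ± 0.77, adjusted p = 0.0358), a call lost without CL19 (0.0615), 3C3 (0.0565) or RMAPC-1 (0.0577), and without array A of RMAPC-1 (2.42, 0.0766).

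Inside the cell the lists were mixed. Their counts are to be read beside the shares over all genes, 47.3% against RClone-2 and 32.8% between the stem cell groups. Of 18 genes of the destruction complex and its partners 8 passed against RClone-2, 5 higher and 3 lower, with Tnks2 at 1.99, Nkd1 at -1.63, Dvl1 at -1.22 and Csnk1d at 1.19 as the largest. The Csnk1d call was lost with arrays centred on spiked-in transcripts (adjusted p = 0.0607). Of 13 nuclear partners of beta-catenin 7 passed, 4 higher and 3 lower, among them the repressor Tle4 (4.35) and the short Groucho relative Tle5 (-3.31). Of 9 genes of the planar polarity branch 7 passed, 5 higher and 2 lower, led by Celsr1 (7.94) and Celsr2 (3.64). The Celsr2 call was lost with normexp background correction (adjusted p = 0.0590). Of 14 known targets of the beta-catenin branch 9 passed, 1 higher and 8 lower: Dkk1 was higher, and Fosl1 (-8.61), Cd44 (-6.89), Ascl2 (-4.70), Lef1, Axin2, Ccnd1 (-2.93), Tcf7 and Nkd1 were lower. The median difference of this list was -2.42, against 0.03 over all genes. Lef1 and Axin2 met the filter only in RClone-2, and Dkk1 only in stem cell lines. The count and the median therefore describe the tested genes and support nothing by themselves. Many of these targets, Cd44, Ccnd1 and Fosl1 among them, are also regulated by other pathways. Between the stem cell groups 5 genes of the destruction complex passed, led by Dact2 (2.39, adjusted p = 0.0167) and Btrc (1.43, adjusted p = 0.00547), with 2 of the planar polarity branch and 2 of the targets, Dkk1 and Nkd1. Of the nuclear partners 0 passed with limma, where 1 had an unadjusted p below 0.05. The call of Dact2 was lost without Fi1 (0.0505) or 3C3 (0.0579).

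**Figure D5:**
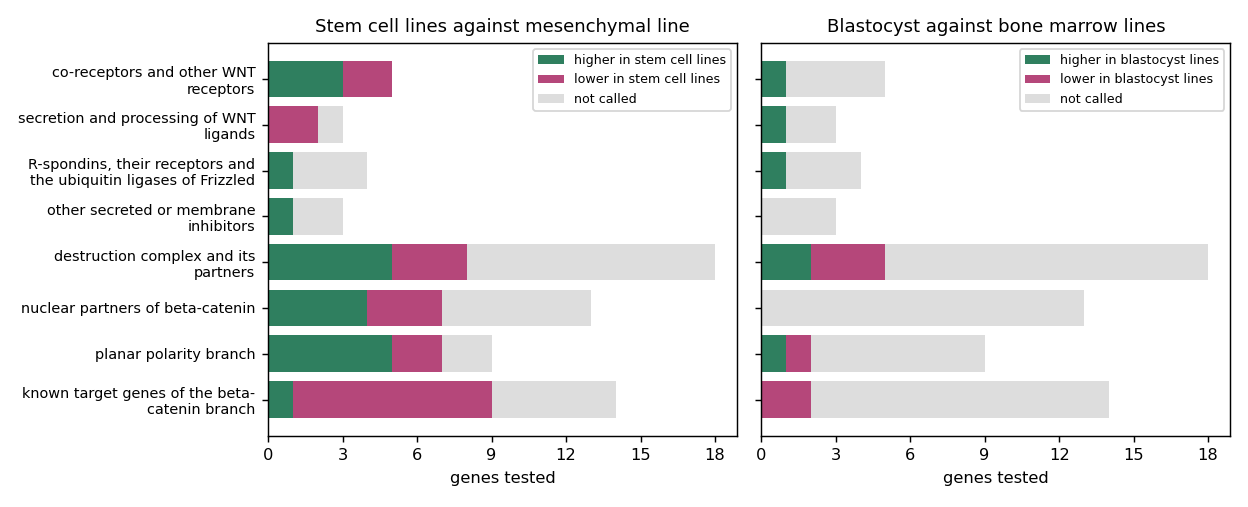
Number of genes tested in each of 8 lists of WNT pathway genes, split into those higher, lower or not passing at an adjusted p of 0.05, for the stem cell lines against RClone-2 (left) and the blastocyst against the bone marrow lines (right). Of 14 known targets 8 are lower in the stem cell lines, and in the right panel no list has more than 5 genes that pass.

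Dkk1 and Axin2 are both textbook targets of beta-catenin and moved in opposite directions against RClone-2, so their upstream sequences were read from RefSeq (GRCr8) and searched on both strands for the motifs CTTTGAT and CTTTGAA, to which factors of the Tcf7 and Lef1 family bind. Among 27457 upstream sequences of 250 bases, 3.18% held the first and 4.63% the second, and 7.58% held either. Of the 36 members 26 had such a sequence and 3 held a motif, Axin2, Dkk1 and Wnt8a. Dkk1 held CTTTGAA from 96 to 90 bases before the start, and Axin2 held CTTTGAA from 232 to 226 and CTTTGAT from 132 to 126 bases before it. The motifs are in capitals and run in the direction of the gene. A match describes the letters and is not evidence of binding. The Dkk1 stretch is chr1:237798651-237798900 on the minus strand and the Axin2 stretch chr10:94398535-94398784 on the plus strand.
Dkk1: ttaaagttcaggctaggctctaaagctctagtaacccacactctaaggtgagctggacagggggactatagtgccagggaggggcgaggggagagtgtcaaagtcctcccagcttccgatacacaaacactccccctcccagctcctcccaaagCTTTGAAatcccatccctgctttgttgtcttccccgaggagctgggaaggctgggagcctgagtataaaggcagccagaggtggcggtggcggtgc
Axin2: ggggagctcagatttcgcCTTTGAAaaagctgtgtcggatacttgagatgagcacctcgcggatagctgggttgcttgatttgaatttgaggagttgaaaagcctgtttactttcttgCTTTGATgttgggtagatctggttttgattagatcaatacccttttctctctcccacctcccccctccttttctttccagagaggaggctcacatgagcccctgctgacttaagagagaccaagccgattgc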

How the data were processed

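Per the file headers, the authors extracted the spots with Agilent Feature Extraction 10.7.3.1 and annotated them on rn4. The deposited scanner files give each spot's processed signal, mean signal and local background as an intensity without scaling among arrays. Their deposited 0 or 1 flags count as other values. The series table deposited by the authors, on the log2 scale, equals the log2 processed signal once sorted, and was not used further. Here the processed signal was put on the log2 scale, the 75th percentile of the array's non-control spots was subtracted, outlier spots were left out and spots of a probe averaged. Arrays A and B were averaged per line. Lines were the replicates of limma 3.58.1 in R 4.3.3 (lmFit, eBayes, 4 residual degrees of freedom), so p-values measure the spread between lines. Benjamini-Hochberg adjustment covered the 24859 genes with a line in which both arrays put the brightest probe well above background. RefSeq accessions named 17372 of 41012 probes, and 23640 kept the file's name; members keep the file's name. The members, the lists and the rule for naming genes (all members with a level, and of each list up to 4 passing genes with the largest difference, or all of a list with 5 or fewer measured) were chosen with earlier results of these data known. The fit was tested on simulated data. The number of lines limits the precision.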

Additional observations from a re-analysis of the deposited data

Results flagged for a closer look

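Dixon's criterion was applied to 56 groups of 6 arrays (28 members in the blastocyst and in the bone marrow lines). By it 5 values lay far from the other 5 arrays of their group. The criterion flags about 1 in 20 groups by chance if the values are independent. The 6 arrays of a group are pairs from 3 lines, so that rate need not hold here. All 5 were in the bone marrow group. Wnt6 stood at 0.15 on array B of RMAPC-1, the one bone marrow array on which it was above background. Wnt5b stood at -1.61 on the same array. Wnt5a stood at -6.48 on array A of RMAPC-1, where no bone marrow array was above background. Lef1 stood at -5.20 on array B of CL19, the one stem cell array on which it was above background. Wnt2 stood at -2.41 on array B of 3C3, and all 6 arrays were above background. What set these arrays apart was not tested.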

How the results depend on the processing

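Of 25 passing differences of members, 8 passed under all alternatives that could be computed: Dkk1, Dkk3, Sfrp1, Wnt11, Wnt7b, Wnt4, Wnt5a and Fzd1 in the stem cell lines against RClone-2. None of the 6 between blastocyst and bone marrow lines did. Of the 8, Dkk1, Dkk3, Sfrp1, Wnt11 and Wnt7b had met the filter in stem cell lines only, so they could hardly do other than pass again. All alternatives of that comparison also used the same single RClone-2 line, so they do not show how far another mesenchymal line would differ. The count of 19 against RClone-2 fell to 9 with normexp background correction and to 6 among the 10 members above background on all arrays, where fewer could be tested. It was 18 to 22 when 1 line was left out. The count of 6 between blastocyst and bone marrow lines was 1 with normexp, 1 without the A arrays, and 0 with slide as a block (10 members at an unadjusted p below 0.05), with the slide pair as a term (5), within slides 1 and 3 (5) and with sex as a covariate (10). Leaving out 1 stem cell line gave 1 to 5: 1 without Fi1, 3C3 or RMAPC-1, 2 without CL19. Without RClone-2 the count could only stay 6, because the single line of its group adds nothing to the spread in the fit. Without array A or B of RMAPC-1 it was 4 and 7. With the letter A or B as a replicate block over arrays the counts were 9 and 21. The sign of Sfrp4 between blastocyst and bone marrow lines turned on unscaled values (0.0564, adjusted p = 0.702). That of Wnt6 (0.01) turned with spiked-in transcripts (-0.21), normexp (-0.53), without the A arrays (-0.96) or array A of RMAPC-1 (-1.26), and without Wk8, CL19 or 3C3 (-0.30, -0.46 and -0.70; -0.70 to 1.19 over all lines left out). Of 23 comparisons of members given without a difference, 15 changed sign in some setting. Over all genes the 8165 calls between the stem cell groups became 1277 with normexp, 3194 with slide as a block, 0 with the slide pair or within slides 1 and 3 (6518 and 5266 at an unadjusted p below 0.05), 4505 with sex, 2588 and 5437 without the A and the B arrays, 4883 without array A of RMAPC-1, and 3725, 3111 and 3103 without Fi1, 3C3 and RMAPC-1. Against RClone-2, 11750 became 5874 with normexp, and the share of higher calls, 52.4%, was 63.2% on unscaled values and 28.3% with spiked-in transcripts. The cause of these changes was not tested. Dim probes near background limit Sfrp4, Lef1, Wnt10b and Wnt9a.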
